A study of Mus musculus with 112 samples.

Results

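Fenofibrate was set against saline in the prefrontal cortex of mice, in 9 arrays of fenofibrate-treated mice and 10 arrays of saline-treated mice, chosen by their labelled treatment and tissue out of the 112 arrays of the series. Fenofibrate is a lipid-lowering drug whose active acid binds PPARα, a nuclear receptor that pairs with an RXR receptor on DNA and raises genes of fatty acid use, above all in liver. PPARα is known in brain too, at far lower levels than in liver, and the prefrontal cortex is a region of the frontal lobe made up mainly of excitatory neurons, interneurons and glia. The mice were male C57BL/6J animals. The fenofibrate group received 150 mg/kg by mouth each morning for 8 days, and the saline group received saline in the same way. The labels give the route as oral but also speak of injection. Both groups consisted of separate mice, and the agonists were suspended in saline with a few drops of the detergent Tween-80. The labels do not state whether the saline mice also got the detergent, or how long after the last dose the tissue was taken. Tesaglitazar (1.5 mg/kg, 9 arrays) and bezafibrate (75 mg/kg, 10 arrays) served as further agonist groups of the same tissue, and fenofibrate and saline arrays of amygdala (9 and 9) and liver (9 and 10) served to compare the response between tissues.

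Transcripts were measured on Illumina bead arrays with 45281 probes, of which 23079 were above background on at least 9 of the 38 prefrontal cortex arrays and were tested. The share of probes above background averaged 47.6 ± 1.16% in the fenofibrate arrays and 47.3 ± 1.33% in the saline arrays (SD), and this difference lay within the spread (two-sided exact permutation test, p = 0.606, 0.606 after adjustment over 3 such tests). The excitatory neuron marker Slc17a7, the glutamate transporter of cortical synaptic vesicles, was above background on all 9 fenofibrate and all 10 saline arrays. One array stood apart. On an axis from amygdala (0) to prefrontal cortex (1), set by the tesaglitazar and bezafibrate arrays, fenofibrate 20 lay at 0.723, whereas the other 8 fenofibrate arrays lay at 0.984 to 1.14, the saline arrays at 0.860 to 1.08 and the amygdala arrays at -0.115 to 0.181. It had the highest mean level of the interneuron, amygdala, thalamic, astrocyte, oligodendrocyte precursor and microglia marker lists among the 19 arrays and the lowest of the excitatory neuron markers (a mean log2 level of 10.1, against 10.5 to 10.7 in saline). Results are therefore also given without it. In liver, the library labelled tesaglitazar 6 correlated better with the saline arrays (median r across probes 0.987) than with its own group (0.949), and the library labelled saline 4 better with the tesaglitazar arrays (0.987) than with its own (0.953), so liver values are also given without this pair. Fewer cells of a type and less RNA per cell cannot be told apart in such bulk samples.

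Many transcripts of prefrontal cortex differed by small amounts between fenofibrate and saline mice. At a Benjamini-Hochberg adjusted p under 0.05 in limma, 1394 of 23079 probes (6.04%) differed from saline, 592 higher (2.57%) and 802 lower (3.48%), with a median size of 0.30 on the log2 scale. Among the called probes the largest rise was 0.80, the deepest fall was -0.62, and 0 of the called probes reached a 2-fold difference. With median centring, in which arrays were aligned by their medians and not by quantiles, 623 probes were called, 600 higher and 23 lower, so most calls of falls depended on the normalisation. Without fenofibrate 20, 1021 probes were called (4.42%), 443 higher (1.92%) and 578 lower (2.5%), and 889 of the 1394 were called again in the same direction. Leaving out 1 saline array cut the count to 877 (without saline 4) or 883 (without saline 3). With 1 probe per gene, its brightest one, 648 of 11912 named genes were called (5.44%), 198 higher (1.66%) and 450 lower (3.78%), and without fenofibrate 20 the share called was 4.13%. The groups did not overlap at all for 14 probes that were higher (0.0607%) and 9 that were lower (0.039%), among them probes of Dbp, Ciart, Nptx2 and Zfp580. For 93.2% of the tested probes the 95% interval of the difference stayed within 0.5 of 0 on the log2 scale. Treatment followed the order of the mouse numbers, as described below for the clock genes, and this touches every call.

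Of the 34 gene lists examined, that of the circadian clock had the most members called higher. All of these lists and their members were chosen with earlier results of these data known. The clock of mammalian cells is a feedback loop in which CLOCK and BMAL1 (gene Arntl) bind the E-box motif and switch on Per and Cry genes, whose proteins then repress their own transcription, and outputs such as Dbp follow the same daily wave. Of 16 clock genes tested, 5 were higher and 0 lower, against 1.66% of all genes called higher, and the median difference of the list was 0.22 on the log2 scale, against -0.015 over all genes. The 5 were Per2, Ciart, Dbp, Per1 and Bhlhe40, the last of which was named after its values were seen. All 5 were also called without fenofibrate 20, and 4 members were called with median centring, but 3 of 15 when only the fenofibrate and saline arrays were fitted. Counts on leaving out single arrays ran from 4 to 6 higher.

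Promoters of Ciart, Per1 and Dbp are described for the E-box, the motif that the clock proteins bind, and those of Per2 and Bhlhe40 were not analysed here. Promoters, from 250 bases before to 50 bases after the start, were taken from RefSeq on GRCm38.p6 and searched for the letters CACGTG, which read the same on both strands and are in capitals below. The motif stood in 2349 of all 32851 promoters (7.15%), in 6 of the 23 promoters of the clock list and in 2 of the 4 promoters of Ciart, Per1 and Dbp. The promoter of Ciart lies on the minus strand at chr3:95882179-95882478 and holds 3 copies. One of the promoters of Per1 lies on the plus strand at chr11:69098699-69098998 and holds 1 copy, whereas the promoter of Dbp held none in this window.
Ciart: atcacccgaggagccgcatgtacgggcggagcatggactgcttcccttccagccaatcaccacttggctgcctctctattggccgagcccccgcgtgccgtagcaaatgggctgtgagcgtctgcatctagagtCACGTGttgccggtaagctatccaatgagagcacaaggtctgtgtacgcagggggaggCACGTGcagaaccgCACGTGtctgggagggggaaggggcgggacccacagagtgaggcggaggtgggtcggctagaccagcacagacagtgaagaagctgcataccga
Per1: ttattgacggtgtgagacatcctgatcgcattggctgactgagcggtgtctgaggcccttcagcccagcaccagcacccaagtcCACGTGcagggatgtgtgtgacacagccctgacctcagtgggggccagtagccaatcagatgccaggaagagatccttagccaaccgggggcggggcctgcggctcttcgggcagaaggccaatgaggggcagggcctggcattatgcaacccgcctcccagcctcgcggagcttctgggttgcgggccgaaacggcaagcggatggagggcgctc

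Dbp, which encodes a transcription factor of clock output, had log2 levels of 11.63 to 11.86 (median 11.76) in the fenofibrate arrays, against 11.21 to 11.54 (median 11.33) in the saline arrays. All 9 fenofibrate arrays lay above all 10 saline arrays. The difference was 0.41 ± 0.06 on the log2 scale (SE), a 1.33-fold rise, with the smallest adjusted p of all probes (0.000127). It was 0.41 without fenofibrate 20 (adjusted p = 0.000174). It was called in 30 of the 31 alternative settings, most of which refit the same arrays with 1 left out. The setting without a call had the place of the mouse number as a covariate, as described below.

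Ciart, whose protein (also called Chrono) represses the clock, was measured by 3 tested probes. For ILMN_3102736, levels ran from 8.19 to 8.89 (median 8.50) under fenofibrate, against 7.55 to 8.40 (median 8.04) under saline, a difference of 0.46 ± 0.09 (adjusted p = 0.00321). Of the 9 fenofibrate arrays, 7 lay above every saline array. ILMN_3029489 separated the groups fully, with 8.03 to 8.46 (median 8.25) under fenofibrate, against 7.30 to 7.93 (median 7.65) under saline, a difference of 0.58 ± 0.09 (adjusted p = 0.000185). The third, ILMN_1236079, differed by 0.22 and was not called (adjusted p = 0.214).

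Per2, a core repressor of the loop, had levels of 9.24 to 9.89 (median 9.64) under fenofibrate and 8.71 to 9.34 (median 9.04) under saline. The difference was 0.54 ± 0.09, 1.45-fold, with an adjusted p of 0.000709, and 7 fenofibrate arrays lay above every saline array. Its other probe, ILMN_2987863, rose by 0.58 (adjusted p = 0.00106). Per1, a repressor that also answers to light and hormones within an hour, had levels of 9.41 to 10.08 (median 9.63) under fenofibrate and 8.87 to 9.69 (median 9.30) under saline. Its groups overlapped, with 4 fenofibrate arrays above every saline array and a difference of 0.40 ± 0.10 (adjusted p = 0.0134), and its other tested probes were not called. Bhlhe40 (DEC1), which competes for the E-box, had 10.59 to 11.30 (median 10.80) under fenofibrate and 10.11 to 10.81 (median 10.55) under saline, a difference of 0.33 ± 0.09 (adjusted p = 0.0208). Per3 was called for one probe, ILMN_1251591 (0.39, adjusted p = 0.00395), but not for its brightest (0.22, adjusted p = 0.0855).

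**Figure D1:**
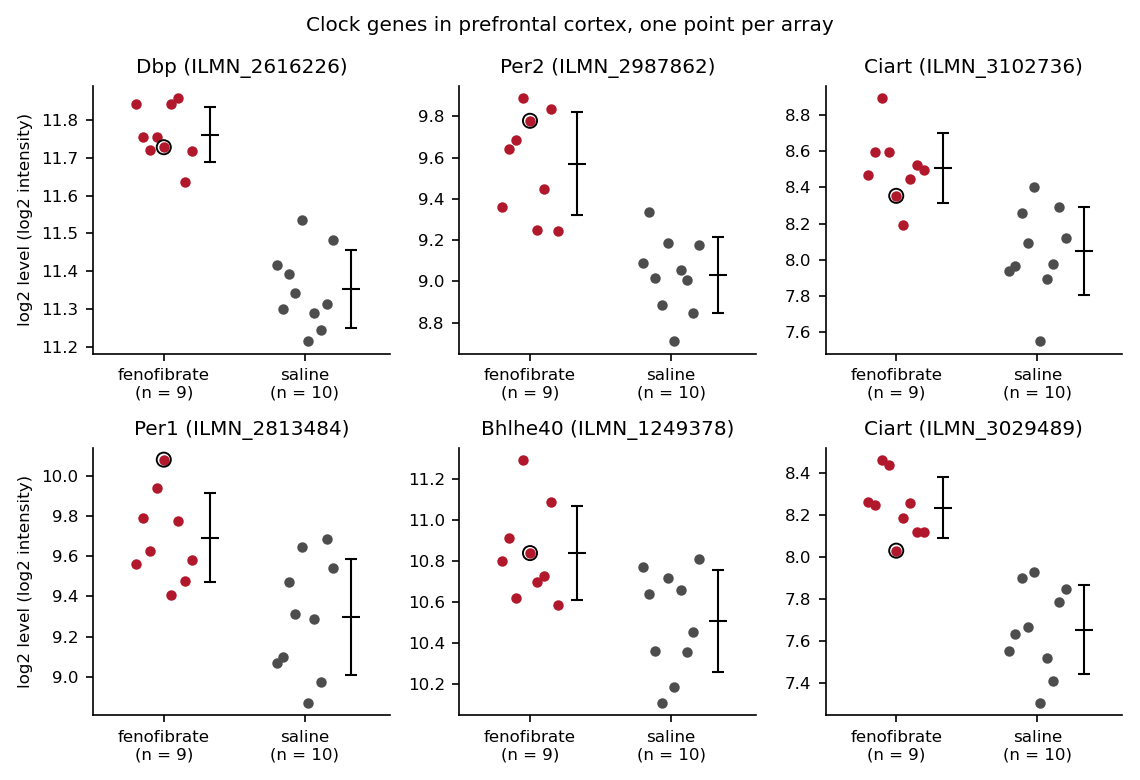
Log2 level of the 5 called clock genes and of a second probe of Ciart in each prefrontal cortex array, with the mean and SD as a bar beside the points and fenofibrate 20 circled. The 9 fenofibrate arrays lie above all 10 saline arrays for Dbp and for ILMN_3029489 of Ciart, and the groups overlap for the other 4 probes.

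The other clock genes were not called. Nr1d2 and Tef differed by 0.35 ± 0.13 (adjusted p = 0.109) and 0.25 ± 0.11 (adjusted p = 0.161). The genes of the positive limb had differences of -0.13 for Arntl (adjusted p = 0.547) and -0.23 for Npas2 (adjusted p = 0.0701), and Clock itself differed by 0.08. Nr1d1, a repressor of Arntl, differed by -0.15 (adjusted p = 0.305). Hlf and Cry2 both differed by -0.04 (adjusted p = 0.825 and 0.847), Rorb by 0.22 (adjusted p = 0.305) and Rora by 0.07 (adjusted p = 0.649).

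The clock genes did not stand at one level in the other groups of the tissue. Dbp averaged 11.76 ± 0.07 under fenofibrate, 11.59 ± 0.08 under tesaglitazar, 11.71 ± 0.15 under bezafibrate and 11.35 ± 0.10 under saline (SD). The means of Per2 were 9.57 ± 0.25 under fenofibrate, 9.30 ± 0.21 under tesaglitazar, 9.44 ± 0.17 under bezafibrate and 9.03 ± 0.18 under saline. For Per1 they were 9.69 ± 0.22 under fenofibrate, 9.63 ± 0.18 under tesaglitazar, 9.57 ± 0.17 under bezafibrate and 9.30 ± 0.29 under saline. All of these comparisons with saline share the same 10 saline arrays. Dbp and 2 probes of Ciart were the 3 probes called for bezafibrate against saline (0.013%), and 0 probes were called for tesaglitazar against saline in limma (1493 at an unadjusted p under 0.05). Against tesaglitazar, Dbp was higher under fenofibrate (adjusted p = 0.0471), whereas Per1, Per2 and Ciart were not called (adjusted p = 0.0666 to 0.774).

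The mouse numbers bear on this group. Within each part of 20 numbers, the treatments followed each other in runs of 5, saline first, then tesaglitazar, bezafibrate and fenofibrate, so that any handling in the order of the numbers moved with treatment. In a fit with treatment and place together, the slope per place was 0.030 ± 0.014 for Dbp, 0.044 ± 0.023 for Per2, 0.047 ± 0.023 for Ciart and 0.074 ± 0.023 for Per1 on the log2 scale (SE), none of them past the adjusted threshold (adjusted p = 0.82 each). With the place as a covariate the difference between fenofibrate and saline turned to -0.05 ± 0.21 for Dbp, -0.13 ± 0.36 for Per2, -0.26 ± 0.36 for ILMN_3102736 of Ciart and -0.73 ± 0.36 for Per1, whereas it stayed positive for Bhlhe40 (0.16 ± 0.36), for ILMN_3029489 of Ciart (0.14 ± 0.34) and for ILMN_1251591 of Per3 (0.68 ± 0.33). With the place, 0 of the 23079 probes were called (1620 at an unadjusted p under 0.05). Place and treatment nearly coincide, so this fit multiplied the standard errors by a median of 4.07. Treatment and the order of handling cannot be told apart in this design.

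**Figure D2:**
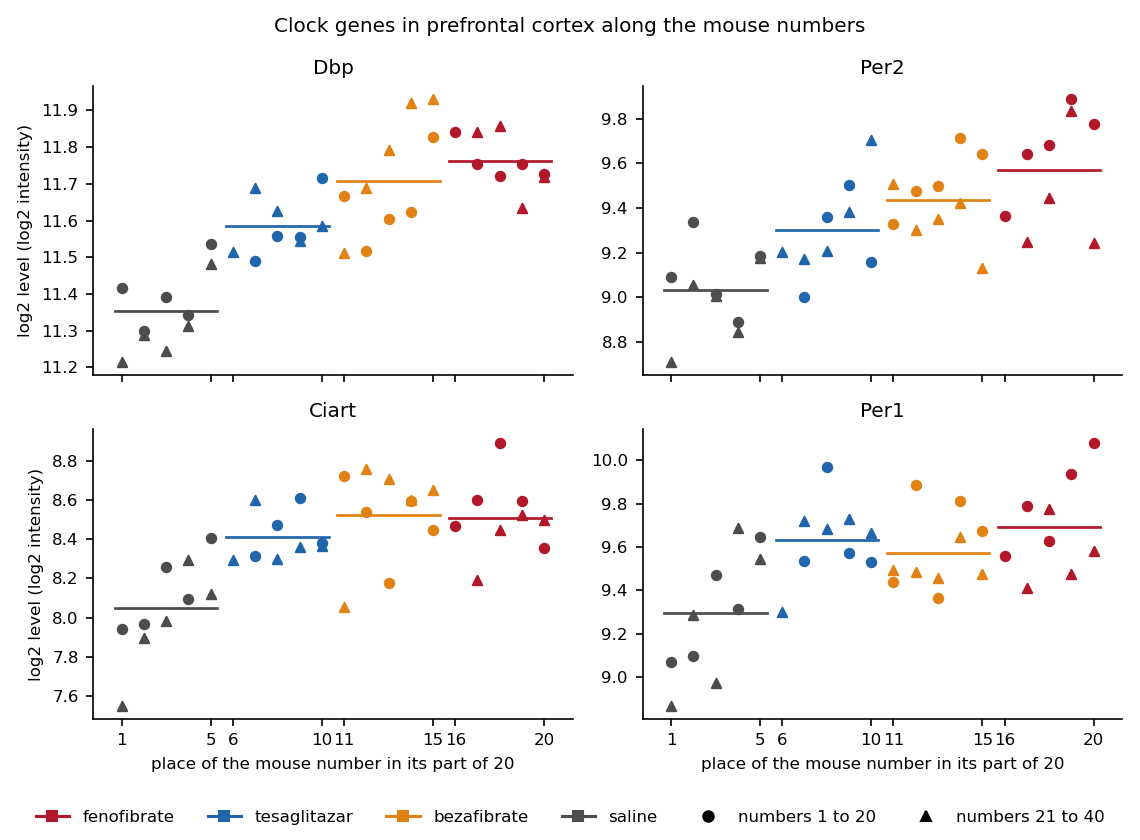
Log2 level of 4 clock genes in all 38 prefrontal cortex arrays against the place of the mouse number in its part of 20, with a line at each treatment's mean. Saline holds places 1 to 5 and fenofibrate places 16 to 20, and the means under tesaglitazar and bezafibrate lie above that of saline in all 4 panels.

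Among the clock genes, Per1, Per2 and Ciart were higher in the liver of fenofibrate-treated mice too. Against saline, Per2 was higher by 0.96 ± 0.20 in liver, Per1 by 0.80 ± 0.24 and Ciart by 1.62 ± 0.24, with adjusted p-values of 0.000525, 0.0131 and 1.04e-05, and without the pair of liver libraries by 0.84, 0.71 and 1.53. Dbp differed by 0.43 ± 0.16 (adjusted p = 0.0476) in liver with all arrays and by 0.34 without the pair (adjusted p = 0.0827). The difference between the tissues' responses was called for Ciart (-1.08, adjusted p = 0.00192) and not for Per1, Per2 or Dbp (adjusted p = 0.342 to 0.756). In amygdala the differences were 0.37 ± 0.11 for Ciart, 0.31 ± 0.07 for Dbp, 0.15 ± 0.08 for Per2 and 0.11 ± 0.07 for Per1, none of them called (adjusted p = 0.218 to 0.733).

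The receptors of the drug gave no calls. Ppara, the receptor of fenofibrate, was above background on 0 of the 38 prefrontal cortex arrays. Ppard differed by -0.06 (adjusted p = 0.606) and Pparg by 0.18 (adjusted p = 0.361), and their partners Rxra, Rxrb and Rxrg differed by -0.14, 0.12 and 0.01 (adjusted p = 0.177 to 0.988). Of 13 receptors and cofactors tested, 1 was called, against 5.44% of all genes. This was the histone acetyltransferase Ep300. It had levels of 8.85 to 9.79 (median 9.28) under fenofibrate and 8.87 to 9.23 (median 8.96) under saline, a difference of 0.28 ± 0.09 (adjusted p = 0.0487) that was not called without fenofibrate 20 (0.21, adjusted p = 0.115). Another of its probes, ILMN_2479839, was called higher as well (0.30, adjusted p = 0.0147).

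The direct targets of PPARα, which serve to take up, activate and oxidise fatty acids, gave no called rise in prefrontal cortex. Of 32 targets tested, 0 were higher and 3 were lower, against 1.66% and 3.78% of all genes, and the median difference was -0.052 on the log2 scale, against -0.015 over all genes. The 95% interval of all 32 lay within 0.5 of 0. Some of the 32 were dim, such as Plin5, above background on 2 fenofibrate and 4 saline arrays. Differences of such dim probes are understated. In liver, 30 of the 40 targets tested were higher and 0 lower (33 higher without the pair), against 10.1% of liver probes (of which 20.2% were called in either direction, and 29.7% without the pair), with a median rise of 1.11 and a largest of 4.50. Where 1 probe measured a target in both tissues, the responses differed for 26 of 32 (28 without the pair), against 16.3% of all probes tested for that difference (7.58% more positive and 8.68% more negative in prefrontal cortex, and 10.6% and 11.2% without the pair). Without fenofibrate 20 the counts in prefrontal cortex were again 0 higher and 3 lower.

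Acot3, an acyl-CoA thioesterase of peroxisomes, shows the contrast. In prefrontal cortex it had log2 levels of 4.74 to 5.53 (median 5.12) under fenofibrate and 5.39 to 5.70 (median 5.50) under saline, and 6 of the 9 fenofibrate arrays lay below every saline array. The difference was -0.32 ± 0.08 (adjusted p = 0.0200). In liver the same probe rose by 4.50 ± 0.62 with all arrays (adjusted p = 4.15e-06) and by 5.07 without the pair, and the responses differed by -4.35 (adjusted p = 1.13e-07). Acot1, its cytosolic relative, had 8.66 to 9.00 (median 8.77) under fenofibrate and 8.78 to 9.33 (median 8.88) under saline in prefrontal cortex, a difference of -0.15 that was not called (adjusted p = 0.218), and rose by 3.29 ± 0.45 in liver with all arrays and by 3.69 without the pair (difference of responses -3.07, adjusted p = 1.9e-07). A second probe of Acot1, ILMN_3062267, was called lower in prefrontal cortex (-0.27, adjusted p = 0.027), but not without fenofibrate 20 (adjusted p = 0.0639).

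Pdk4, the kinase that inhibits pyruvate dehydrogenase when fat is burnt, had levels of 6.03 to 6.52 (median 6.23) in prefrontal cortex under fenofibrate and 6.26 to 6.79 (median 6.51) under saline, a difference of -0.27 ± 0.07 (adjusted p = 0.0243). In liver it differed by 1.18 with all arrays (adjusted p = 0.213) and rose by 1.78 without the pair (adjusted p = 1.45e-05). Slc25a34, a mitochondrial carrier, had 5.24 to 5.76 (median 5.52) under fenofibrate and 5.54 to 6.17 (median 5.78) under saline, a difference of -0.29 ± 0.08 (adjusted p = 0.0271). In liver Slc25a34 differed by 0.22 with all arrays (adjusted p = 0.239) and rose by 0.31 without the pair (adjusted p = 0.00258). These falls were not called with median centring (adjusted p = 0.162 for Acot3, 0.393 for Pdk4 and 0.245 for Slc25a34), nor when only the fenofibrate and saline arrays were fitted. Angptl4, which inhibits lipoprotein lipase, differed by -0.07 (adjusted p = 0.785) and Plin2, a lipid droplet coat protein, by -0.21 (adjusted p = 0.259). In liver Angptl4 was higher by 0.75 (adjusted p = 0.0116) and Plin2 by 1.13 (adjusted p = 0.0109) with all arrays, and by 0.91 and 1.42 without the pair. Cyp4a14, Ehhadh and Cpt1a were above background on 0, 3 and 1 of the 38 prefrontal cortex arrays and were not tested there.

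**Figure D3:**
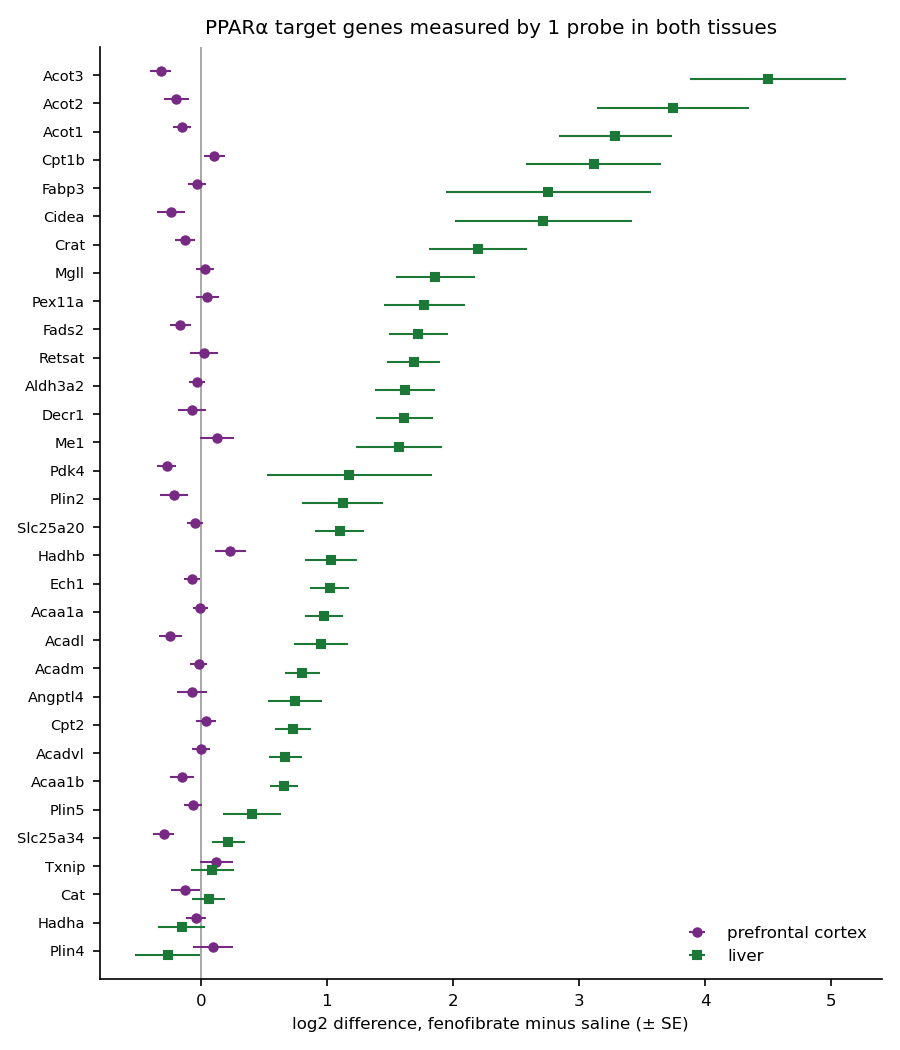
Log2 difference between fenofibrate and saline with its SE for the 32 PPARα target genes measured by 1 probe in both tissues, in prefrontal cortex (circles) and in liver with all arrays as labelled (squares). In prefrontal cortex the differences stay within 0.319 of 0, while in liver they reach 4.50.

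Neighbouring programmes of lipid and energy metabolism gave few calls. Of 24 further genes of fatty acid oxidation, 35 of oxidative phosphorylation, 24 of cytosolic ribosomal proteins and 25 of chaperones, 0 were called in limma with all 19 arrays (without fenofibrate 20, 2 ribosomal protein genes were called lower). Of 12 peroxisome biogenesis genes, Pex13, part of the import machinery of peroxisomes, was higher by 0.32 ± 0.10 (adjusted p = 0.0439), but not without fenofibrate 20 (adjusted p = 0.0896), and its other probes were not called. Cholesterol and fatty acid synthesis had 3 of 19 genes lower and 0 higher, against 3.78% and 1.66% of all genes, with a median of -0.141, against -0.015. Mvd, an enzyme of the mevalonate pathway, had levels of 6.42 to 7.18 (median 6.80) under fenofibrate and 6.96 to 7.51 (median 7.20) under saline, with 8 of 9 fenofibrate arrays below every saline array and a difference of -0.43 ± 0.08 (adjusted p = 0.0013). Its fall was also called with median centring (adjusted p = 0.0248). Dhcr7, which makes cholesterol in the last step of one branch, fell by 0.30 (adjusted p = 0.0256, and 0.0540 without fenofibrate 20), and Srebf2, the transcription factor that drives this pathway, by 0.28 (adjusted p = 0.0245). Another probe of Srebf2 differed by -0.01, and neither Dhcr7 nor Srebf2 was called with median centring (adjusted p = 0.377 and 0.395).

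Among the falls, genes of myelinating oligodendrocytes formed the list with the lowest median. Oligodendrocytes wrap axons in myelin, a membrane rich in galactolipids. Of 15 markers tested, 3 were lower (Opalin, Fa2h and Cnp) and 0 higher, against 3.78% and 1.66% of all genes. A positive difference was found for 1 of the 15, against 5410 of all 11912 genes, and the median was -0.233 (-0.307 without fenofibrate 20), against -0.015 over all genes. The mean log2 level of the 15 markers ran from 8.82 to 9.46 (median 9.15) in the fenofibrate arrays and from 9.12 to 9.78 (median 9.33) in the saline arrays, so the groups overlapped. Opalin, a membrane protein of the myelin paranode, had levels of 7.90 to 8.66 (median 8.40) under fenofibrate and 8.55 to 9.29 (median 8.81) under saline. It fell by 0.55 ± 0.13 (adjusted p = 0.0121), and 7 fenofibrate arrays lay below every saline array. Fa2h, which makes the hydroxylated fatty acids of myelin lipids, had 7.54 to 8.95 (median 8.35) under fenofibrate and 8.45 to 9.46 (median 8.74) under saline, a difference of -0.52 ± 0.15 (adjusted p = 0.0374). Cnp, an enzyme of the cytoplasmic myelin face, had 8.45 to 9.02 (median 8.70) under fenofibrate and 8.74 to 9.69 (median 9.19) under saline, a difference of -0.43 ± 0.12 (adjusted p = 0.0294), and its other probe differed by -0.28 (adjusted p = 0.0697).

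The myelin genes Mbp (-0.27, adjusted p = 0.107), Mag (-0.27, adjusted p = 0.122) and Mog (-0.41, adjusted p = 0.113) were not called. Nkx2-2, a transcription factor of maturing oligodendrocytes that stood among the deepest falls, had 5.62 to 7.09 (median 6.48) under fenofibrate and 6.58 to 7.17 (median 6.896) under saline, a difference of -0.53 ± 0.14 (adjusted p = 0.0234). The highest of the fenofibrate levels for Fa2h and Nkx2-2 was that of fenofibrate 20, and without it the falls were 0.59 and 0.62. Opalin, Fa2h, Cnp and Nkx2-2 were not called with median centring (adjusted p = 0.0614 to 0.187). The precursor markers Olig1 (-0.10) and Pdgfra (-0.08) were not called, and of the 9 precursor markers 0 were. Leaving out 1 array gave 1 to 3 myelin markers lower, with 1 when fenofibrate 19, fenofibrate 40, saline 3 or saline 4 was left out.

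Nptx2, a secreted pentraxin that neurons induce with activity and that clusters glutamate receptors, had the deepest called fall. Its levels were 8.57 to 9.45 (median 9.15) under fenofibrate and 9.54 to 9.91 (median 9.76) under saline. All fenofibrate arrays lay below all saline arrays, and the difference was -0.62 ± 0.11, a 1.53-fold fall (adjusted p = 0.00121). The probe was called in 30 of 31 alternative settings, but not with the place of the mouse number as a covariate. Zfp580, a zinc finger gene, also separated the groups, with 4.82 to 5.23 (median 4.99) under fenofibrate and 5.24 to 5.69 (median 5.54) under saline and a difference of -0.51 ± 0.08 (adjusted p = 0.000185). It was lower under fenofibrate than under bezafibrate too (-0.39, adjusted p = 0.027, not called without fenofibrate 20). Against saline, 29 of its 31 settings gave a call, and the place covariate gave none. Mt3, a zinc-binding metallothionein of brain, had 10.11 to 11.35 (median 10.87) under fenofibrate and 10.91 to 11.70 (median 11.34) under saline, a difference of -0.56 ± 0.13 (adjusted p = 0.00863, and 0.0507 with median centring).

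The other named falls were those of Zfp763 (-0.53), Fam220a (-0.48), Eipr1 (-0.48), 2310011J03Rik (-0.46), Them6 (-0.46) and Prrt1 (-0.46), with adjusted p-values of 0.00071 to 0.0062. Prrt1 encodes a partner of AMPA-type glutamate receptors, and all 3 of its tested probes fell. Eipr1 was supported by 1 of 4 other probes and Them6 by 1 of 2, whereas the other probes of Zfp763 and Fam220a were not called. For Eipr1 and Them6 the brightest probe was another and was not called (-0.07 and -0.24). The other probes of Fam220a were brighter than the named one (-0.26 and -0.01). Of the 12 named falls, 7 were called with median centring. With the authors' processed values all 12 were called, but the falls were smaller, from -0.10 for Them6 to -0.53 for Mt3.

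**Figure D4:**
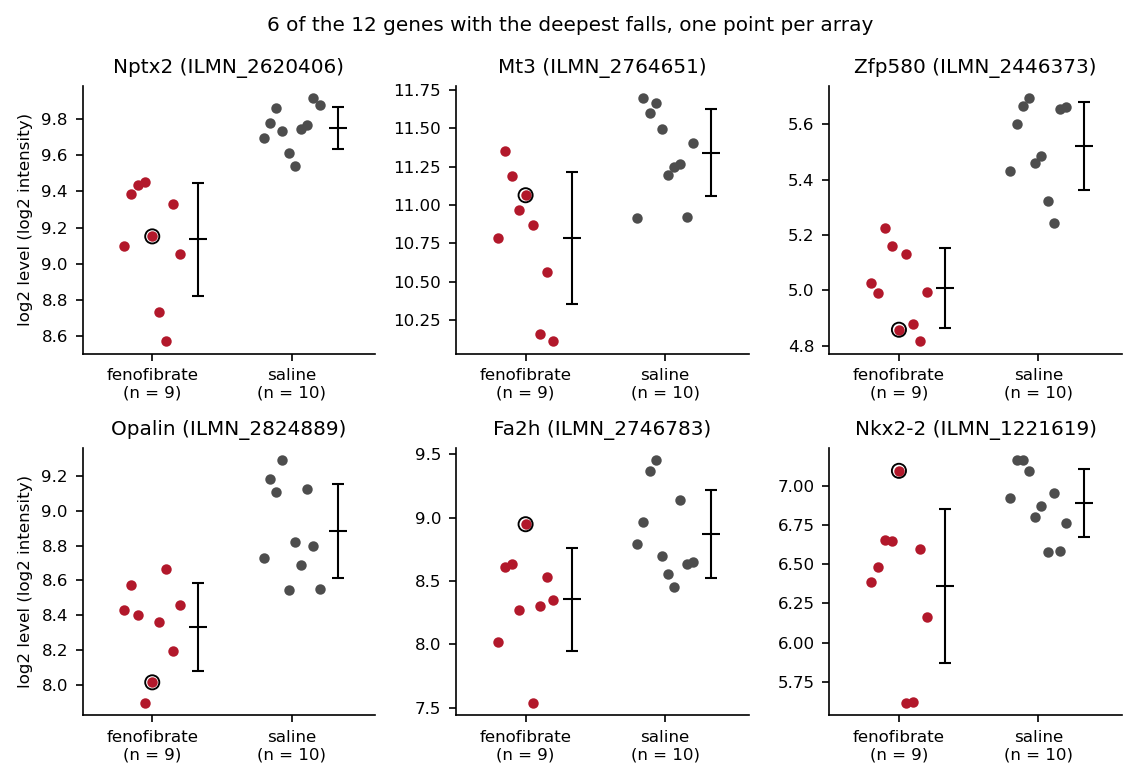
Log2 level of 6 of the 12 genes with the deepest falls in each prefrontal cortex array, with the mean and SD as a bar beside the points and fenofibrate 20 circled. The groups do not overlap for Nptx2 and Zfp580, and they overlap for Mt3, Opalin, Fa2h and Nkx2-2.

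The 12 largest rises among named genes differed by 0.59 to 0.75 on the log2 scale, and all 12 were called with median centring. With the authors' processed values all 12 were called too, but the rises were smaller, from 0.16 for Ptprd to 0.59 for Erich5. Within the first part of the mouse numbers 10 were called and within the second 1, with fewer arrays in each. Between these parts the rise of Rhbdl2 was 0.94 and 0.20, whereas that of Ptprs was 0.72 and 0.74. Ptprs, a receptor phosphatase that organises synapses, had levels of 7.996 to 8.71 (median 8.49) under fenofibrate and 7.39 to 8.20 (median 7.58) under saline for ILMN_1241523, a rise of 0.72 ± 0.13 (adjusted p = 0.00104). Its 3 other probes differed by 0.10 to 0.21 and were not called. Ptprd, of the same family, rose by 0.66 ± 0.17 (adjusted p = 0.0148), and its other probe differed by 0.31 (adjusted p = 0.143). Dag1, the dystroglycan receptor for laminin, had 7.82 to 8.88 (median 8.11) under fenofibrate and 6.96 to 8.02 (median 7.52) under saline, a rise of 0.64 ± 0.14 (adjusted p = 0.00438). Its other probe rose as well (0.34, adjusted p = 0.0211).

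Erich5 had 9.83 to 10.55 (median 10.16) under fenofibrate and 9.05 to 9.99 (median 9.59) under saline, and 8 fenofibrate arrays lay above every saline array (a rise of 0.67 ± 0.11, adjusted p = 0.000488). The predicted genes Gm7609 and Gm10125 rose by 0.75 ± 0.14 (adjusted p = 0.00159) and 0.59 ± 0.09 (adjusted p = 0.000222), and both were also higher under fenofibrate than under bezafibrate (adjusted p = 0.0406 and 0.0349), although not without fenofibrate 20. Rian, an imprinted noncoding RNA, rose by 0.64 ± 0.17 (adjusted p = 0.022) and Rhbdl2, an intramembrane protease, by 0.59 ± 0.13 (adjusted p = 0.0059). Each of these 5 genes had 1 tested probe. For Ctu2 (0.71), an enzyme of tRNA modification, another probe was called in the opposite direction (-0.22, adjusted p = 0.04). The other probes of Ipo5 (0.65), Sgip1 (0.64) and Luc7l2 (0.59) were not called. The brightest probes of Ptprs, Ptprd, Ctu2, Ipo5 and Sgip1 were others than those with the named rises. They differed by 0.10, 0.31, 0.14, 0.03 and 0.11, in that order, and none was called.

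A call was often not shared by all probes of a gene. Of 275 genes with several tested probes and at least 1 called higher, 9 had all probes called higher. Of 395 genes with at least 1 probe called lower, 27 had all called lower. The other probes of these genes had the same sign for 308 of 492 (higher) and 416 of 590 (lower). In each set 10 of them were called in the opposite direction. The called probes also differed in what they map to. No gene symbol was paired with 34% of the probes called higher, 12% of those called lower and 16% of all tested. The genes called higher had a median span on the genome of 56.3 kb, those called lower 14.4 kb and all genes tested 23.8 kb. Without fenofibrate 20 these spans were 54.1 kb and 15.6 kb.

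Some genes induced by neuronal activity and by glucocorticoids were called. Of 22 immediate early genes, Per1 and Egr4 were higher and 0 lower, against 1.66% and 3.78% of all genes, with a median of 0.189, against -0.015. Egr4, a transcription factor induced within minutes of neuronal firing, had 9.48 to 10.09 (median 9.72) under fenofibrate and 8.62 to 9.90 (median 9.26) under saline, a difference of 0.47 ± 0.14 (adjusted p = 0.0324). Of the fenofibrate arrays 1 lay above every saline array, and 8 of 10 saline arrays lay below every fenofibrate array. Of 21 glucocorticoid-induced genes, Tsc22d3 (0.30 ± 0.08, adjusted p = 0.0186) and Klf9 (0.27 ± 0.08, adjusted p = 0.0367) were higher and Pdk4 lower, with a median of 0.089, against the same shares and median of all genes. Tsc22d3, which encodes the leucine zipper protein GILZ, had 9.74 to 10.39 (median 9.95) under fenofibrate and 9.54 to 9.84 (median 9.70) under saline. For this probe 7 fenofibrate arrays lay above every saline array, and the other probe differed by 0.17 and was not called. None of the 21 glucocorticoid-induced genes was called with median centring.

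The synaptic lists are set against 5.44% of all genes called, 1.66% higher and 3.78% lower. Of 24 genes of glutamate signalling, 1 was higher and 1 lower. Slc17a7 had 11.06 to 11.55 (median 11.41) under fenofibrate and 11.43 to 11.87 (median 11.71) under saline, a fall of 0.28 ± 0.08 (adjusted p = 0.0246, and 0.0577 without fenofibrate 20). Grin2a, a subunit of NMDA receptors, rose by 0.35 ± 0.10 for its brightest probe (adjusted p = 0.0243) and differed by -0.10 for the other. Of 22 genes of vesicle release, Syn3 was higher (0.38) and Syt5 lower (-0.28), both not called without fenofibrate 20 (adjusted p = 0.0693 and 0.0951). The other probes of Syn3 differed by -0.14 to 0.17 and were not called. Of 28 potassium and sodium channel genes, Kcnq5, which carries the M-current, was higher by 0.50 ± 0.15 (adjusted p = 0.0352, and 0.0545 without fenofibrate 20), while another probe of it was called lower (-0.25, adjusted p = 0.049). Of 14 genes of GABA signalling and 21 neuropeptides, 0 were called with all 19 arrays.

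Stat3 was higher by 0.39 ± 0.11 (adjusted p = 0.0259), as 1 of 18 inflammatory genes called, against 5.44% of all genes. Its other tested probes differed by 0.24 and -0.06 and were not called. Maob, which degrades amines, was lower by 0.21 (1 of 13 monoamine and opioid genes, adjusted p = 0.0336). Gsta4 was lower by 0.23 ± 0.07 and was, with Mt3, 1 of 2 called among 20 antioxidant genes. Stat3, Maob and Gsta4 were not called without fenofibrate 20 (adjusted p = 0.0577 to 0.079).

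Markers of other cells are given for what the dissected pieces could hold. Over all genes, 5.44% were called, and 4.13% without fenofibrate 20. Tmem119, a microglial membrane protein, had 6.60 to 7.13 (median 6.97) under fenofibrate and 6.98 to 7.45 (median 7.21) under saline, a fall of 0.32 ± 0.07 (adjusted p = 0.00668), as the single call among 15 microglial markers (3 without fenofibrate 20). Cbs was the single call among 16 astrocyte markers (-0.31, adjusted p = 0.0193) and Zfhx3 among 17 amygdala markers (0.22, adjusted p = 0.0397, and 0.0766 without fenofibrate 20). The other probe of Cbs (-0.16) and those of Zfhx3 (0.11 and 0.15) were not called. All 12 meningeal and fibroblast markers had a positive difference, with a median of 0.231 and 0 called. Their mean log2 level ran from 6.93 to 7.96 (median 7.57) in the fenofibrate arrays and from 6.82 to 7.68 (median 7.15) in the saline arrays. Of the interneuron, cortical layer, striatal, endothelial, choroid plexus, blood and precursor markers 0 were called with all 19 arrays. The part of these cells in the results was not tested.

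**Figure D5:**
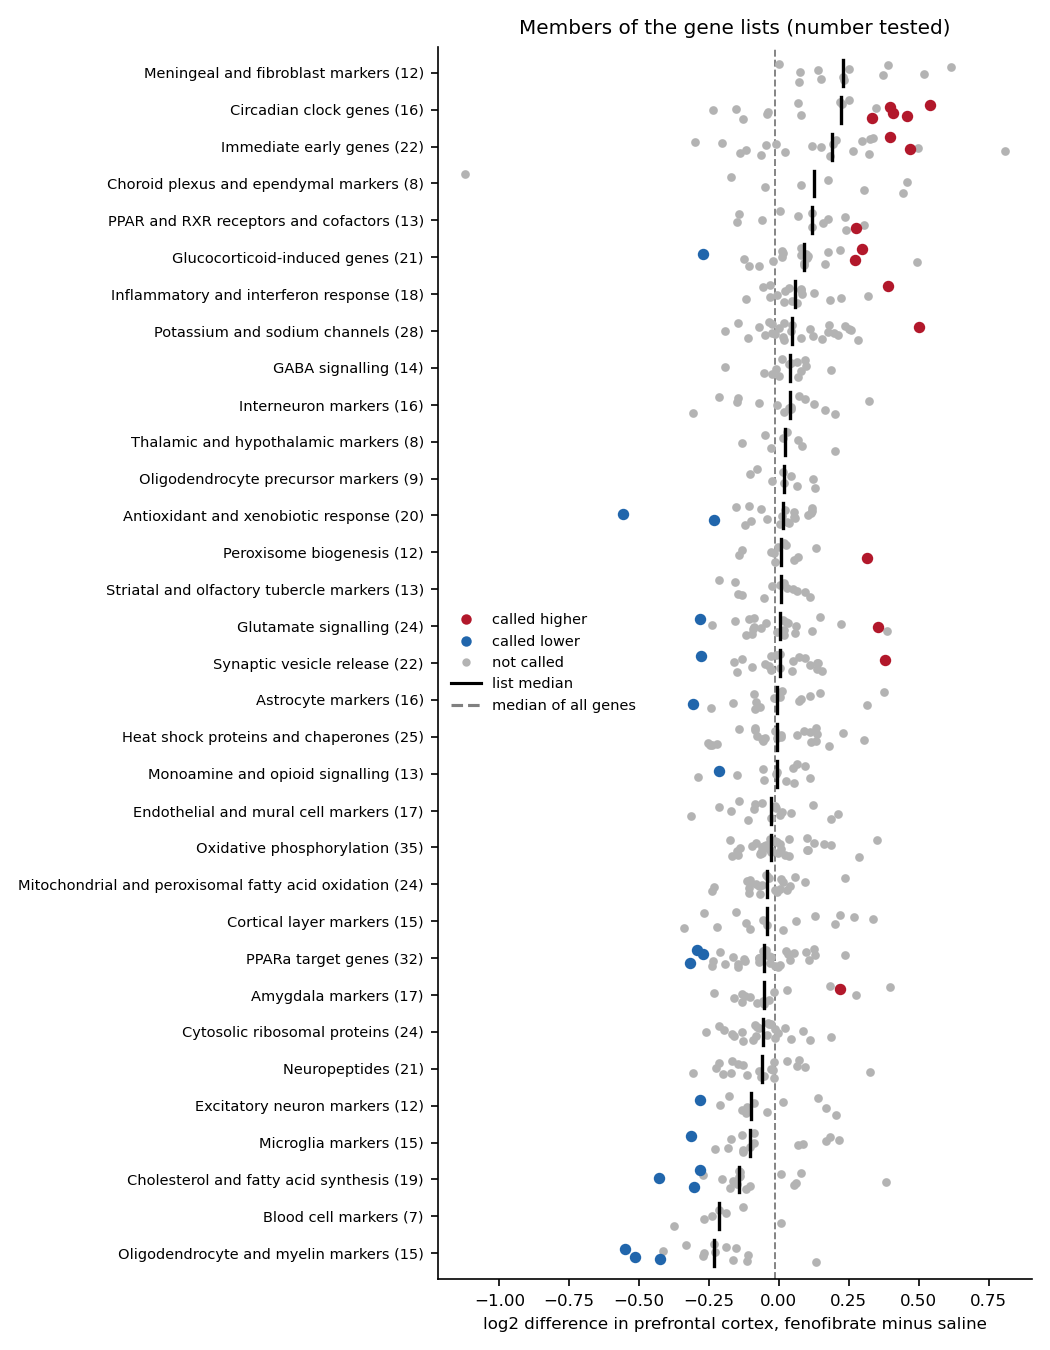
Log2 difference between fenofibrate and saline in prefrontal cortex for each tested member of 33 gene lists with at least 5 tested members, coloured where the member was called, with the list's median as a black bar. The clock list has a median of 0.221 with 5 members called higher, and the oligodendrocyte and myelin list a median of -0.233 with 3 called lower.

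Between the 2 brain regions the responses to fenofibrate differed for 122 of 24464 probes (0.499%), 18 more positive (0.0736%) and 104 more negative (0.425%) in prefrontal cortex, and for 146 without fenofibrate 20 (0.597%, with 0.094% more positive and 0.503% more negative). With the mouse number as a block, which uses the 35 mice with both regions, 1 probe was called, and with median centring 0 were. In amygdala alone, 0 of 23803 probes were called for fenofibrate against saline in limma (2064 at an unadjusted p under 0.05, smallest adjusted p = 0.218). Of the genes named above, Nkx2-2, Eipr1 and Syt5 differed between regions. Their differences from saline in prefrontal cortex were -0.53, -0.48 and -0.28, and in amygdala 0.12, 0.10 and 0.23 (adjusted p of the difference = 0.04998, 0.0448 and 0.0416). For Nptx2 the difference was -0.62 in prefrontal cortex and 0.04 in amygdala, and the test of that contrast gave an adjusted p of 0.0695.

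Against the other agonists, at the doses used, fenofibrate differed from tesaglitazar in 1870 probes of prefrontal cortex (8.1%), 1059 higher (4.59%) and 811 lower (3.51%), and from bezafibrate in 24 (0.104%), 19 higher (0.0823%) and 5 lower (0.0217%). Without fenofibrate 20 the counts were 1610 and 0. Nptx2 averaged 9.13 under fenofibrate, 9.60 under tesaglitazar, 9.28 under bezafibrate and 9.75 under saline, and differed between fenofibrate and tesaglitazar (-0.46, adjusted p = 0.00965) but was not called between fenofibrate and bezafibrate (-0.15, adjusted p = 0.595). Mt3 had means of 10.79 under fenofibrate, 11.35 under tesaglitazar, 11.07 under bezafibrate and 11.34 under saline, and was lower under fenofibrate than under tesaglitazar by 0.57 (adjusted p = 0.00616).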

How the data were processed

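RNA of prefrontal cortex, amygdala and liver was amplified and biotin-labelled for Illumina arrays, per the labels' protocols. The deposited table holds an intensity per probe and array, taken here as not yet normalised, with a detection p-value against negative control probes as deposited by the authors. The authors' processed log2 values, for which the submitters' processing notes name lumi (version not given in the sources used here), served as an alternative. 112 columns matched samples, and 8 columns that did not were not used.

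Background was removed by limma's normexp model, with noise estimated through the detection p-values (offset 16), and arrays were quantile normalised per tissue and put on the log2 scale, so fold changes of dim probes are understated. Kept were probes whose detection p lay under 0.05 in 9 or more arrays of a tissue. All 38 prefrontal cortex arrays were fitted by treatment with limma 3.58.1 (R 4.3.3), with Benjamini-Hochberg adjustment over all tested probes and a threshold of 0.05. Responses were compared between tissues by the interaction. Errors of differences are SE, and the number of arrays limits precision. Share above background, mean intensity and axis position were tested with two-sided exact permutation tests over 92378 assignments. Figures were drawn with matplotlib 3.10.9.

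The platform annotation, which can be old, paired 34885 of 45281 probes with 1 gene symbol and 18 with several, and did not list 10378. In the lists and gene counts, a gene stands for its brightest tested probe, whereas the named rises and falls were picked by probe. Named were the 12 largest rises and 12 deepest falls called with and without fenofibrate 20, up to 4 called members of each of 34 lists (or the 2 brightest where none was called), and fixed PPAR genes. Probes named beyond these, such as those of Bhlhe40, Per3, Nr1d2, Tef, Arntl, Npas2, Clock, Nr1d1, Hlf, Cry2, Rorb, Mbp, Mag and Mog, were chosen after their values were seen. Members and lists were chosen with earlier results of these data known. The mouse number was taken as the animal across tissues. Fenofibrate and saline mice share no number, and same-numbered samples deviated together weakly (median r 0.0623 over 35 pairs with amygdala, 0.0358 over 36 with liver). Arrays are taken as separate mice. The code was tested on simulated data. Alternatives were background correction, normalisation, filter, variance model, array weights, arrays fitted, numbering, axis position, the authors' values and leaving out each array.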

Additional observations from a re-analysis of the deposited data

Results flagged for a closer look

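In 12 of 182 group values examined, 1 array lay far from the rest of its group, where chance gives about 5%. Most of them belonged to fenofibrate 20. It had the highest fenofibrate levels of Gad1 (13.02) and Slc32a1 (12.40), genes of GABA neurons, and of Angptl4 (6.74), and the lowest of the cortical genes Cck (10.88) and Lamp5 (11.47) and of Srebf2 (7.06), beside its axis position of 0.723. The choroid plexus gene Ttr reached 14.63 in fenofibrate 17, against 4.50 to 7.89 in the other fenofibrate arrays. Among saline arrays, saline 1 was low in Fam220a (5.32), saline 4 in Pdyn (9.41), an opioid peptide gene, saline 21 in the haemoglobin gene Hbb-bt (11.73) and saline 24 in the share of probes above background (44.0%).

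The response in prefrontal cortex differed from that in amygdala for 122 probes, although for 1 with the mouse number as a block and 0 with median centring. Among them it differed by -0.67 for Nkx2-2 (adjusted p = 0.04998), -0.59 for Eipr1 and -0.50 for Syt5 on the log2 scale. It differed from the response in liver for 4133 probes (5549 without the liver libraries saline 4 and tesaglitazar 6) and for 26 of the PPARα targets (28 without them). With all arrays, and then without those libraries, this difference was -4.35 and -4.85 for Acot3 and -3.07 and -3.42 for Acot1. It was -3.14 and -3.91 for Fabp3, a fatty acid carrier, and -1.52 and -1.67 for Retsat, a retinol saturase. It was -1.15 and -1.41 for Plin2, -0.72 and -0.86 for Angptl4, -0.51 and -0.61 for Slc25a34, and -1.08 and -0.98 for the clock gene Ciart.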

How the results depend on the processing

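The count of 1394 probes for fenofibrate against saline was 623 with median centring, 537 with only the fenofibrate and saline arrays, 255 within mouse numbers of the first part and 62 within those of the second (fewer arrays in each of the last 3), and 0 with the place of the number as a covariate, which was added after seeing the data. Leaving out single arrays gave 877 (without saline 4) to 1854 (without fenofibrate 37). The other alternatives gave 1022 (no detection filter) to 1980 (axis position as a covariate). Against bezafibrate, 24 probes became 15 with median centring and 0 without fenofibrate 20. For the difference between brain regions, 122 probes became 1 with the mouse number as a block, 0 with median centring, 30 with the axis position and 47 with no detection filter, and the cause was not tested. The paired fit by mouse number gave 4400 probes for the difference from liver, against 4133. Of 51 named called probes, 29 were still called with median centring, 36 to 50 when 1 array was left out and 0 with the place covariate. With that covariate the sign turned for Per1 (-0.73), Per2 (-0.13), Ciart (-0.26), Dbp (-0.0498), Egr4 (-0.78), Pex13 (-0.60), Srebf2 (0.0222) and Maob (0.15), with adjusted p-values of 0.704 to 0.991. The number of arrays limits what small differences can show.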

Other observations

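Blood and choroid plexus genes varied from array to array. The haemoglobin gene Hbb-bs had log2 levels of 12.25 to 12.89 (median 12.48) under fenofibrate and 12.12 to 13.36 (median 12.74) under saline, and was not called (-0.24, adjusted p = 0.304). Ttr, which the choroid plexus secretes, had 4.50 to 14.63 (median 7.14) under fenofibrate and 6.19 to 11.92 (median 7.98) under saline, and was not called (-1.12 ± 0.82, adjusted p = 0.444). Igf2, a growth factor of the meninges, had 10.08 to 11.94 (median 10.98) under fenofibrate and 9.76 to 10.98 (median 10.49) under saline, with 5 fenofibrate arrays above every saline array and a difference of 0.52 ± 0.20 that was not called (adjusted p = 0.111).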
